A study of Mus musculus with 10 samples.

Results

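The p53 pathway genes described here are Trp53, which encodes the transcription factor p53, and 9 genes that control it or answer to it: Mdm2, Mdm4, Cdkn2a, Ccng1, Cdkn1a, Trp53inp1, Bbc3, Pmaip1 and Tnfrsf10b. They were chosen by name, as every non-control probe that the array assigns to one of these symbols, and they make up 10 of the 36095 gene names and 15 of the 55681 probes on the array. All 10 genes were measured. RNA came from 10 untreated mouse neuroblastomas, 5 from ALK+/-, MYCN+/- transgenic mice on a C57BL/6 x 129X1/SvJ background (ALK/MYCN, in which ALK, a receptor tyrosine kinase, carries the F1174L change) and 5 from MYCN+/- transgenic mice on a 129X1/SvJ background (MYCN). Every tumour in both groups therefore carried the MYCN transgene, and in every difference below the ALK genotype and the mouse background cannot be told apart. The promoters that drive the transgenes are not given in the sources used here. Each tumour RNA was labelled with Cy3 and read on 1 array against Cy5-labelled Universal Mouse Reference RNA from 11 cell lines, so values are log2 ratios, tumour divided by reference, and dye and sample type cannot be told apart in its sign.

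p53 is kept scarce in resting cells by Mdm2, a ubiquitin ligase that marks it for degradation, with the help of its relative Mdm4. Damage signals, or the Arf protein made from Cdkn2a when an oncogene such as MYC is active, free p53 from Mdm2, and p53 then switches on genes for arrest, repair and death, together with Mdm2 itself. In human neuroblastoma the gene for p53 is usually intact at diagnosis, and both it and MDM2 are known as targets that MYCN can activate. Most of this control acts on the protein, which arrays do not measure.

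Some of this wiring can be read in the DNA in front of the genes. RefSeq windows of 300 bases (250 before to 50 after a transcript start, GRCm38.p6) were matched for 7 members with 12 windows, all but Tnfrsf10b, Trp53inp1 and Pmaip1. They were searched on both strands for the p53 half-site consensus, the decamer that a pair of p53 molecules binds, and for CACGTG, the E-box that MYC proteins bind; both motifs are their own reverse complement. The half-site was in 4 of the 12 windows, those of Mdm2, Ccng1, Trp53 and the upstream start of Cdkn1a, against 8.36% of 32851 windows over all genes. A half-site beside a further one with at most 1 mismatch was in 2 windows, those of Ccng1 and Cdkn1a, against 0.0883% of all windows. CACGTG was in 2 windows, those of Trp53 and Bbc3 (in Bbc3 64 bases before a start), against 7.15% of all. A match describes letters only and is not evidence that a protein sits there.

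The upstream window of Cdkn1a is shown because it holds the 20-base pair of half-sites, in capitals, 51 bases before the start (window at chr17:29090729-29091028, plus strand, GRCm38.p6).
Cdkn1a window: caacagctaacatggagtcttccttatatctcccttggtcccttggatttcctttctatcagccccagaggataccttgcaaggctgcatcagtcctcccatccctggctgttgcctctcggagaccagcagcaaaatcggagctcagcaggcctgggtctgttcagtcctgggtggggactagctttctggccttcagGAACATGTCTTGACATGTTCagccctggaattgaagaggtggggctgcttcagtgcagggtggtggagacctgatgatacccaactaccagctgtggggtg

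The Trp53 window is shown because it holds CACGTG, in capitals, 10 bases after the start, and a p53 half-site 75 bases before it (window at chr11:69580109-69580408, plus strand, GRCm38.p6).
Trp53 window: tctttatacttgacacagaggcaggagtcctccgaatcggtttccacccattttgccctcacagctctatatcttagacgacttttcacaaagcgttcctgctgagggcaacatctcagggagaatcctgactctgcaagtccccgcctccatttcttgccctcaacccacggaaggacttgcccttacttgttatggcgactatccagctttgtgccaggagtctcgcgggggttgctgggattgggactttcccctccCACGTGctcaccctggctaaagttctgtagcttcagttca

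The other p53 sites found are shown alone, whole in capitals, to be set beside these: the half-site of Trp53, the further half-site of Cdkn1a (chr17:29090906-29090915, plus strand), 73 bases before its start, the pair of Ccng1 (chr11:40755462-40755481, minus strand) and the half-site of Mdm2 (chr10:117710935-117710944, minus strand), which lies 186 bases before its start.
Trp53 half-site: GGACTTGCCC
Cdkn1a half-site: GGACTAGCTT
Ccng1 pair: AGACCTGCCCGGGCAAGCCT
Mdm2 half-site: GAACTTGCCT

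On each array 53.8% to 58.7% of probe spots were well above background in Cy3, and no spot was saturated; precision is limited by how many arrays there are. The 1 mouse probe of highest mean intensity for Alk averaged 4.35 ± 0.48 in ALK/MYCN tumours against 4.28 ± 0.042 in MYCN tumours (SD over 5 tumours). The 1 for Mycn averaged 3.65 ± 0.77 in ALK/MYCN tumours against 0.80 ± 0.43 in MYCN tumours. Whether these probes read the transgenes is not given in the files, so they do not check the labels. The neuroblast markers Hand2 and Th were well above background on all 10 arrays and above the reference RNA. Hand2, a transcription factor of sympathetic neurons, averaged 5.44 in ALK/MYCN tumours against 5.42 in MYCN tumours. Th, the first enzyme of catecholamine synthesis, averaged 4.52 in ALK/MYCN tumours against 4.29 in MYCN tumours. Markers of other tissues were highest in single tumours. In MYCN 2 and MYCN 1 the skeletal muscle markers (4 of 6 measured) averaged 5.73 and 2.24 above their means over the tumours. In ALK/MYCN 3 the adrenal cortex markers (3 of 5 measured) averaged 4.12 above theirs. The muscle markers also separated the groups, with -1.41 to -1.04 in ALK/MYCN tumours against -0.83 to 5.73 in MYCN tumours. They are not part of the covariate used below.

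Of the 10 genes, 3 were lower in ALK/MYCN than in MYCN tumours, none was higher, and 7 did not pass the test (limma across all genes, Benjamini-Hochberg adjusted p under 0.05). Tnfrsf10b fell most, by 1.17 on the log2 scale, followed by Pmaip1, by 0.50, and Trp53, by 0.32. Over all 22236 genes tested, 26.5% passed, 14.2% higher and 12.3% lower, and 8681 genes had an unadjusted p under 0.05, so 3 of 10 members is close to the background. Higher genes made up 53.8% of these calls with loess, 76.7% with median centring and 88.3% with centring on spike-in spots, and under either centring Tnfrsf10b alone of the members passed. Over the 30856 probes tested as such, 24.9% passed (13.7% higher and 11.2% lower) and the groups did not overlap for 18.9%; of the 14 member probes tested, the same 3 passed, all lower. The median difference was -0.21 over the members and -0.0040 over all genes. In bulk tumour RNA, fewer cells of a type and less RNA per cell cannot be told apart.

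**Figure D1:**
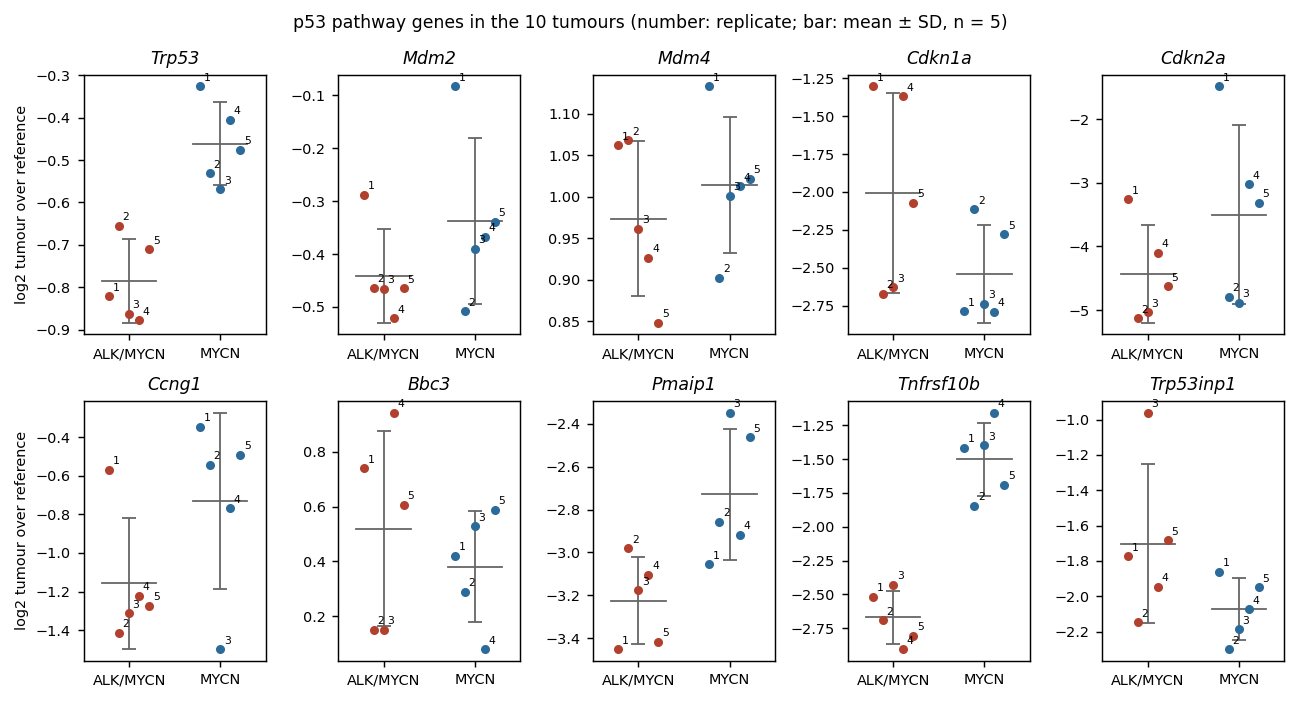
Log2 ratio of tumour over reference for the probe that stands for each gene, with 1 panel per gene and its own vertical axis; each point is a tumour with its replicate number, ALK/MYCN left and MYCN right, and bars give the mean ± SD (n = 5 each). The groups do not overlap for Tnfrsf10b and Trp53, while Cdkn1a and Cdkn2a spread more within a group than between groups.

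Trp53 was read by a 60-base probe present as 2 spots, at mm9 chr11:69404204-69404263 on the plus strand, which begins at position 1187 of the transcript the array names. It is shown because all Trp53 values rest on it. Whether the mouse backgrounds differ in sequence under it was not checked.
Trp53 probe: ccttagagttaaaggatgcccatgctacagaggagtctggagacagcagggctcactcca

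Trp53 had log2 ratios of -0.82, -0.66, -0.86, -0.88 and -0.71 in ALK/MYCN tumours 1 to 5, against -0.33, -0.53, -0.57, -0.40 and -0.48 in MYCN tumours 1 to 5. Every ALK/MYCN tumour lay below every MYCN tumour. Groups did not overlap for 2 members, Trp53 and Tnfrsf10b, against 20.0% of all genes. The ALK/MYCN mean was -0.79 ± 0.098 and the MYCN mean -0.46 ± 0.097 (SD over 5 tumours). They differed by -0.32 ± 0.072 (SE), or 1.25-fold lower, with a limma adjusted p of 0.00977. The SD pooled within groups, 0.098, stood at the 12.3rd percentile of all genes. Within slides 1, 2 and 3 the differences were -0.33, -0.45 and -0.18. The call was lost in 7 of 28 alternatives, with differences of -0.12 (centring on spike-in spots, limma adjusted p = 0.391) to -0.34 (scanner-processed signals, limma adjusted p = 0.0582). Spike-in centring subtracts 1 value per array from the loess-normalised values and moved the median difference of all genes to 0.20. The Trp53 difference relative to that median was -0.32 with and without it. This holds by construction for any gene, so it is no evidence for the call.

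Mdm2, the ligase that degrades p53 and is itself switched on by it, had log2 ratios of -0.29, -0.46, -0.47, -0.52 and -0.47 in ALK/MYCN tumours, against -0.083, -0.51, -0.39, -0.37 and -0.34 in MYCN tumours. The groups overlapped: ALK/MYCN 1 lay above every MYCN tumour except MYCN 1, and MYCN 2 lay below every ALK/MYCN tumour except ALK/MYCN 4. The difference was -0.10 with a 95% interval of -0.29 to 0.086 (limma adjusted p = 0.402). Mdm4, which binds p53 and blocks its activity, varied least, with 0.85 to 1.07 in ALK/MYCN tumours against 0.90 to 1.13 in MYCN tumours. Its difference was -0.041 with an interval of -0.19 to 0.11 (limma adjusted p = 0.692), and its other probe gave -0.14 ± 0.11 (SE, limma adjusted p = 0.403 over probes). The sign of Mdm2 and Mdm4 turned positive under median and spike-in centring, so no direction is given for either.

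Cdkn2a encodes both Arf, which inhibits Mdm2, and Ink4a, which inhibits the kinases Cdk4 and Cdk6. Its probes lie next to each other, at mm9 chr4:88920405-88920464 and chr4:88920543-88920602 on the minus strand, and the array names the same transcript for both, so these data do not separate the products. Log2 ratios were -3.25, -5.13, -5.03, -4.10 and -4.62 in ALK/MYCN tumours 1 to 5, against -1.48, -4.79, -4.89, -3.02 and -3.31 in MYCN tumours 1 to 5. Within each group the tumours spanned a wider range than the distance between the group means, and MYCN 1 was far above the rest. The ALK/MYCN mean was -4.43 ± 0.77 and the MYCN mean -3.50 ± 1.41 (SD over 5 tumours), and the difference of -0.93 had an interval of -2.35 to 0.49 (limma adjusted p = 0.314). The pooled SD stood at the 98.6th percentile of all genes, the highest of the members. Without MYCN 1 the difference was -0.42 ± 0.51 (SE, limma adjusted p = 0.584), with the slide as a block it was -1.44 (0.15), and with a covariate for endothelial, macrophage and fibroblast markers it was -2.07 (0.0610). The second probe ordered the tumours similarly, with MYCN 1 again highest at -1.36 and the others of both groups between -2.65 and -2.16; it was well above background on 3 of 5 ALK/MYCN arrays and 5 of 5 MYCN arrays. Its difference was -0.35 ± 0.19 (SE, limma adjusted p = 0.217 over probes).

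Ccng1 encodes cyclin G1, a direct p53 target that recruits a phosphatase to Mdm2. Its log2 ratios were -0.57, -1.41, -1.31, -1.22 and -1.27 in ALK/MYCN tumours 1 to 5, against -0.35, -0.54, -1.50, -0.77 and -0.49 in MYCN tumours 1 to 5. In each group 4 tumours lay together and 1 lay with the other group, ALK/MYCN 1 among the high values and MYCN 3 at the bottom. The difference was -0.43 with an interval of -0.94 to 0.082 (limma adjusted p = 0.196). Leaving out MYCN 3 gave -0.62 and a call (limma adjusted p = 0.0335), while the difference was -0.79 (0.0633) with the covariate and -0.22 (0.525) with spike-in centring.

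**Figure D2:**
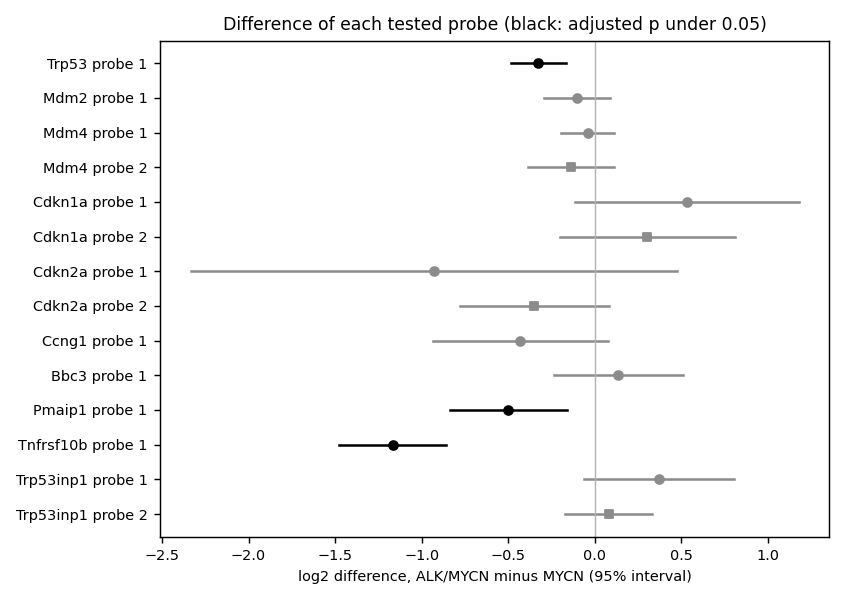
Difference in log2 ratio, ALK/MYCN minus MYCN, for each of the 14 member probes tested, with its 95% interval from the limma fit over probes; circles are the probes that stand for a gene, squares second probes, and black marks an adjusted p under 0.05. Trp53, Pmaip1 and Tnfrsf10b lie wholly below 0, and the interval of the first Cdkn2a probe is the widest.

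Cdkn1a encodes p21, the inhibitor of cyclin-dependent kinases through which p53 halts the cell cycle, and carries the pair of half-sites printed above. Its main probe was present as 10 spots, whose SD within an array was at most 0.074, at mm9 chr17:29237377-29237436 on the plus strand. Log2 ratios were -1.30, -2.67, -2.63, -1.37 and -2.07 in ALK/MYCN tumours 1 to 5, against -2.79, -2.11, -2.74, -2.79 and -2.28 in MYCN tumours 1 to 5. ALK/MYCN 1 and ALK/MYCN 4 were the highest tumours, while ALK/MYCN 2 and ALK/MYCN 3 lay among the low MYCN tumours. The ALK/MYCN mean was -2.01 ± 0.66 and the MYCN mean -2.54 ± 0.32 (SD over 5 tumours), and the difference of 0.53 had an interval of -0.12 to 1.19 (limma adjusted p = 0.208). A second probe, at mm9 chr17:29227986-29228045, starts at position 55 of another Cdkn1a transcript and again had its highest values in ALK/MYCN 1, at -0.020, and ALK/MYCN 4, at -0.61. Its difference was 0.31 ± 0.23 (SE, limma adjusted p = 0.357 over probes). The remaining probe was well above background only in those same tumours, 2 of 5 ALK/MYCN and 0 of 5 MYCN arrays, and was not tested.

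Trp53inp1 encodes a stress protein induced by p53 that takes part in cell death and autophagy. Log2 ratios were -1.77, -2.14, -0.96, -1.95 and -1.68 in ALK/MYCN tumours 1 to 5, against -1.86, -2.30, -2.19, -2.07 and -1.95 in MYCN tumours 1 to 5. ALK/MYCN 3, the tumour with adrenal cortex markers at 4.12, stood highest on both probes. The difference was 0.37 with an interval of -0.067 to 0.81 (limma adjusted p = 0.192), and 0.081 ± 0.11 (SE, limma adjusted p = 0.637 over probes) on the second probe. Without ALK/MYCN 3 the difference of the first probe was 0.19 ± 0.12 (SE, limma adjusted p = 0.291). The part of the adrenal cortex RNA was not tested otherwise.

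**Figure D3:**
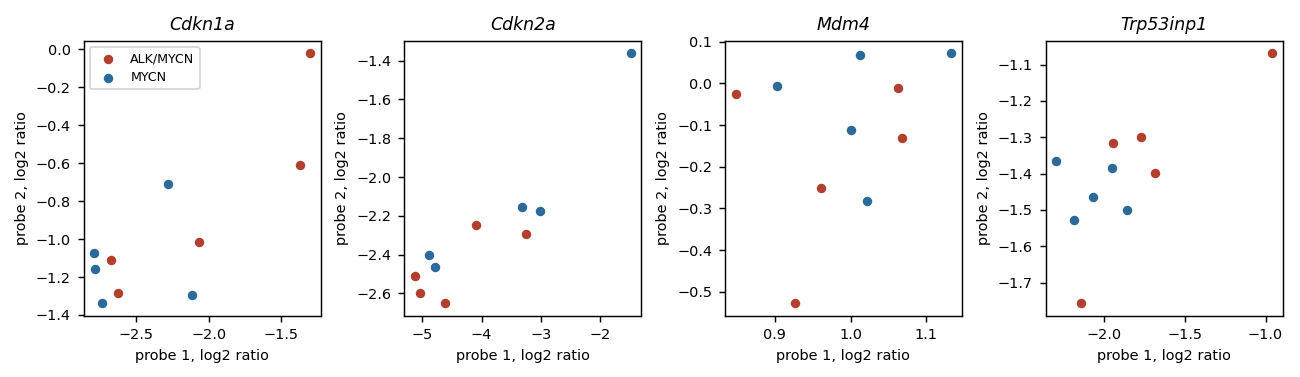
Log2 ratios of the first probe (horizontal) against the second probe (vertical) of the 4 members with more than 1 tested probe, 1 point per tumour, ALK/MYCN in red and MYCN in blue. ALK/MYCN 1 and ALK/MYCN 4 are high on both Cdkn1a probes, MYCN 1 on both Cdkn2a probes and ALK/MYCN 3 on both Trp53inp1 probes.

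Tnfrsf10b encodes the death receptor for the ligand TRAIL, which starts apoptosis from the cell surface and is induced by p53; the mouse has a single such receptor with a death domain. Log2 ratios were -2.52, -2.69, -2.43, -2.90 and -2.81 in ALK/MYCN tumours 1 to 5, against -1.41, -1.84, -1.40, -1.16 and -1.69 in MYCN tumours 1 to 5. The highest ALK/MYCN tumour was below the lowest MYCN tumour. Means were -2.67 ± 0.20 in the ALK/MYCN group against -1.50 ± 0.27 in the MYCN group (SD over 5 tumours). This is -1.17 ± 0.14 (SE), or 2.25-fold lower, with a limma adjusted p of 6.75e-04. Within slides 1, 2 and 3 the differences were -1.28, -1.46 and -1.16. The only probe of the gene, at mm9 chr14:70184141-70184200 on the plus strand, was well above background on all 10 arrays. Whether the mouse backgrounds differ in sequence under this probe was not checked.

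Marker levels of other cells also differed in range between the groups, with endothelial markers (8 of 8 measured) averaging -0.84 to 0.10 in ALK/MYCN tumours against 0.079 to 1.03 in MYCN tumours, and macrophage markers (8 of 8) -0.75 to -0.18 in ALK/MYCN tumours against -0.19 to 0.98 in MYCN tumours. Fibroblast markers (8 of 8) averaged -1.96 to 0.14 in ALK/MYCN tumours against -1.88 to 2.57 in MYCN tumours, while Schwann cell markers (4 of 5) averaged 0.34 to 1.26 in ALK/MYCN tumours, all above the -0.99 to -0.20 of the MYCN tumours. With the mean of the endothelial, macrophage and fibroblast markers as a covariate, the Tnfrsf10b difference was -1.09 ± 0.19 (SE, limma adjusted p = 0.00704). Without the 3 tumours highest in muscle or adrenal cortex markers, ALK/MYCN 3, MYCN 1 and MYCN 2, a set chosen after seeing the data, it was -1.31 ± 0.15 (SE, limma adjusted p = 0.00491). Without ALK/MYCN 3, MYCN 2 and MYCN 5, the last of which was not high in those markers, it was -1.41 ± 0.12 (SE, limma adjusted p = 0.00279). Under the same covariate the Trp53 difference was -0.37 ± 0.096 (SE, limma adjusted p = 0.0306), and without the first and the other set of tumours it was -0.28 ± 0.089 and -0.33 ± 0.097 (limma adjusted p = 0.0669 and 0.0561).

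Pmaip1 encodes Noxa and Bbc3 encodes Puma, both BH3-only proteins that trigger the mitochondrial route of apoptosis. Pmaip1 had log2 ratios of -3.45, -2.98, -3.18, -3.10 and -3.42 in ALK/MYCN tumours 1 to 5, against -3.05, -2.86, -2.35, -2.92 and -2.46 in MYCN tumours 1 to 5. The groups overlapped only between ALK/MYCN 2 and MYCN 1, and the probe was well above background on 3 of 5 ALK/MYCN and 5 of 5 MYCN arrays. Means were -3.23 ± 0.20 in the ALK/MYCN group against -2.73 ± 0.31 in the MYCN group (SD over 5 tumours), and they differed by -0.50 ± 0.15 (SE) with a limma adjusted p of 0.0372. The call was lost in 18 of 27 alternatives, among them leaving out ALK/MYCN 1, 3, 4 or 5 or MYCN 3 or 5 (limma adjusted p = 0.0525 to 0.0874) and the slide as a block (0.133). Within slides 1, 2 and 3 the differences were 0.073, -0.33 and -0.86, and scanner-processed signals gave -1.05.

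Bbc3 had log2 ratios of 0.74, 0.15, 0.15, 0.94 and 0.61 in ALK/MYCN tumours, against 0.42, 0.29, 0.53, 0.081 and 0.59 in MYCN tumours. As for Cdkn1a, ALK/MYCN 1 and ALK/MYCN 4 were the highest tumours and ALK/MYCN 2 and ALK/MYCN 3 were low. The difference was 0.14 with an interval of -0.24 to 0.51 (limma adjusted p = 0.586), and it was -0.073 with the covariate, so no direction is given.

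Tumours within a group thus differed more in some members than the groups did. MYCN 1 was the highest of the 10 tumours in 5 members, Trp53, Mdm2, Mdm4, Cdkn2a and Ccng1, and ALK/MYCN 4 was the lowest in 3. Fibroblast, macrophage and endothelial markers were lower in MYCN 1 than in the other MYCN tumours, at -1.88, -0.19 and 0.079. Whether this bears on the high values of MYCN 1 was not tested. After the mean of each group was taken away, ALK/MYCN 1 stood 0.71 above its group in Cdkn1a, 1.17 in Cdkn2a and 0.59 in Ccng1, and MYCN 1 stood 2.02 above its group in Cdkn2a. No tumour was the highest or lowest in all members.

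**Figure D4:**
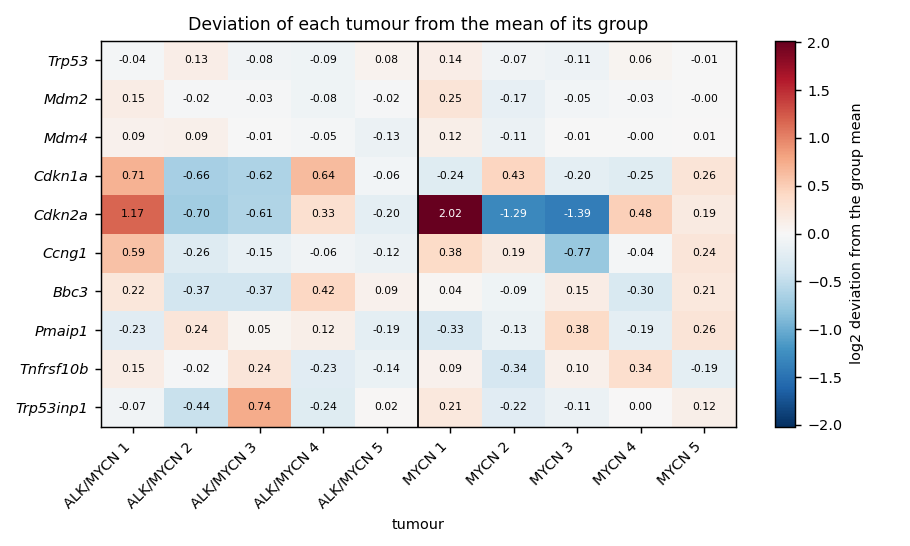
Deviation of each tumour from the mean of its group, in log2 units, for the 10 members (top to bottom) and the 10 tumours (ALK/MYCN left, MYCN right), with colour from blue (below) to red (above). MYCN 1 and ALK/MYCN 1 are high in Cdkn2a, and ALK/MYCN 1 and ALK/MYCN 4 are high in Cdkn1a and Bbc3.

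The wider pathway was described by 5 lists of 74 further genes, of which 71 were measured. Of these, 10 were higher and 15 lower in ALK/MYCN tumours (35.2% against 26.5% of all genes), and their median difference was -0.018. The split was 13 higher to 10 lower under median centring, and 19 to 8 under spike-in centring. Both directions occurred among p53 targets (5 higher and 9 lower of 47) and among regulators of p53 (5 higher and 6 lower of 24).

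Among 13 measured death genes, 3 were lower and none higher (23.1% called, against 26.5% of all genes). The median difference of the 13 was -0.32, with a range of -1.05 to 0.72. Siva1, a proapoptotic adaptor, averaged -1.33 ± 0.076 in ALK/MYCN tumours against -0.42 ± 0.11 in MYCN tumours (SD over 5 tumours), a log2 difference of -0.91 ± 0.071 (SE, limma adjusted p = 1.15e-04). Bid, which links death receptors to mitochondria, differed by -0.35 ± 0.089 (SE, limma adjusted p = 0.0185). Apaf1, the core of the apoptosome, differed by -0.44 ± 0.15 (SE, limma adjusted p = 0.0484). The Apaf1 call was lost in 17 alternatives, which included the omission of any tumour but ALK/MYCN 4 and MYCN 2; with spike-in centring the difference was -0.24 (limma adjusted p = 0.280).

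Among 13 measured arrest genes, 1 was higher and 3 lower (30.8% called, against 26.5% of all genes). Cgref1, a growth regulator, averaged 1.62 ± 0.35 in ALK/MYCN tumours against 0.32 ± 0.66 in MYCN tumours, a log2 difference of 1.30. Rprm, which encodes the G2 arrest protein Reprimo, averaged 1.72 ± 0.67 in ALK/MYCN tumours against 3.02 ± 0.40 in MYCN tumours, a log2 difference of -1.30. Cdc25c, a mitotic phosphatase that p53 represses in human cells, fell by 0.38, and Gpx1, a glutathione peroxidase, fell by 0.59. The calls of Bid, Cdc25c and Rprm were lost in 6, 5 and 6 alternatives, those of Bid and Cdc25c under both centrings. The Gpx1 call was lost in 10 alternatives, with -0.34 under the covariate for other cells (limma adjusted p = 0.275), -0.38 under spike-in centring (0.124), and without ALK/MYCN 1, 2 or 5 or MYCN 3, 4 or 5 (0.0545 to 0.0678).

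Repair and metabolism held 4 higher and 2 lower genes among 15 measured (40% called, against 26.5% of all genes), with a median of 0.14. Tigar, a fructose bisphosphatase, averaged 0.40 ± 0.32 in ALK/MYCN tumours against -0.40 ± 0.30 in MYCN tumours, a log2 difference of 0.81 (limma adjusted p = 0.0100). Rrm2b, the p53-induced subunit of ribonucleotide reductase, differed by 0.30 (limma adjusted p = 0.0151). Gdf15, a secreted stress cytokine, averaged -3.72 ± 0.10 in ALK/MYCN tumours against -2.67 ± 0.48 in MYCN tumours, a log2 difference of -1.05 (limma adjusted p = 0.00510). Pltp, a phospholipid transfer protein, differed by -1.25 (limma adjusted p = 0.00526). With the covariate of endothelial, macrophage and fibroblast markers, Tigar, Rrm2b and Cgref1 were no longer called (limma adjusted p = 0.0585, 0.0740 and 0.117) and Pltp differed by -0.75.

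Of 6 feedback genes, 1 passed (16.7% against 26.5% of all genes). This was Wrap53, which lies antisense to Trp53 and encodes a telomerase and Cajal body protein. It averaged 0.24 ± 0.12 in ALK/MYCN tumours against 0.74 ± 0.15 in MYCN tumours, a log2 difference of -0.50 ± 0.088 (SE, limma adjusted p = 0.00372), the same direction as Trp53. Under spike-in centring Wrap53 differed by -0.29.

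Of 24 measured regulators, 11 were called (45.8% against 26.5% of all genes), 5 higher and 6 lower. This was the largest share among 5 small lists, the smallest being 16.7%, and the lists were not tested as sets. Npm1, which encodes a nucleolar protein that binds Arf and Mdm2, averaged -0.24 ± 0.058 in ALK/MYCN tumours against 0.26 ± 0.052 in MYCN tumours, a log2 difference of -0.51 (limma adjusted p = 5.15e-04). Chek2, a kinase that phosphorylates p53 after DNA breaks, differed by -0.89 (limma adjusted p = 0.00376). Usp2, a deubiquitinase that stabilises Mdm2, averaged -0.18 ± 0.51 in ALK/MYCN tumours against 1.11 ± 0.46 in MYCN tumours, a log2 difference of -1.29 (limma adjusted p = 0.00857). Ppp1r13b, which encodes ASPP1 and steers p53 towards death genes, averaged 0.078 ± 0.14 in ALK/MYCN tumours against -0.57 ± 0.28 in MYCN tumours, a log2 difference of 0.65 (limma adjusted p = 0.00731). The Usp2 call was lost with the covariate (limma adjusted p = 0.0740), and spike-in centring gave -0.30 for Npm1.

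**Figure D5:**
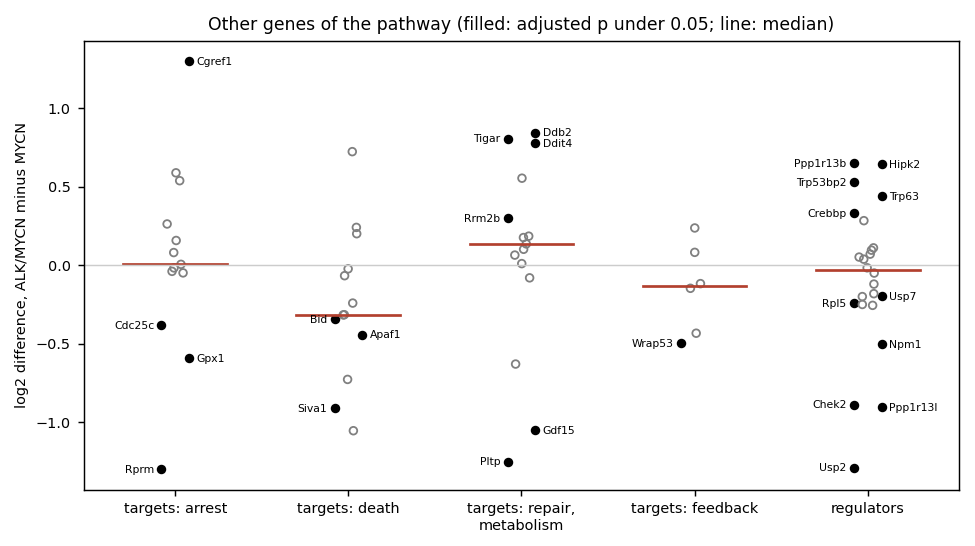
Difference in log2 ratio, ALK/MYCN minus MYCN, of the 71 further pathway genes measured, in 5 lists (horizontal); filled points have a limma adjusted p under 0.05 and are named, and the red line is the median of a list. Calls lie on both sides of 0 in the arrest, repair and regulator lists and below 0 in the death and feedback lists.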

How the data were processed

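Total RNA of 10 tumours was hybridised on 2-colour Agilent arrays, tumour in Cy3 and reference in Cy5 with no dye swap, per the labels' protocols. The deposited intensity of each spot was extracted with Agilent Feature Extraction 10.7.3.1, with probe positions on mm9, per the file headers; background and outlier flags (other columns) were deposited with it. The deposited value table holds log2 ratios, which matched the log2 quotient of processed Cy3 and Cy5 signals to 5.01e-04, so their scale and direction are known; they are not centred, with medians of -0.186 to -0.035.

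Mean signals were corrected for local background with normexp (offset 50) and normalised by loess within arrays, with control spots at weight 0 (limma 3.58.1, R 4.3.3). Ratios were turned to tumour over reference. Spots with outlier flags were set to missing and spots of a probe averaged. Probes were kept (30856) when 5 or more of the 10 arrays had them well above background in Cy3, and the probe of highest mean intensity stood for a gene (22236). RefSeq names (GRCm38.p6) were given to 14157 genes through the accession, 840 through the symbol and 159 through a synonym, and 7080 kept the array's name. Groups were compared with lmFit and eBayes, two-sided, with Benjamini-Hochberg adjustment over all genes, or over all probes where stated. Labels describe biological replicates. The slide of each array was read from the name of its raw data, and the 3 slides were treated as batches. They held 1 ALK/MYCN against 1 MYCN tumour on slide 1, 3 against 1 on slide 2, 1 against 3 on slide 3. Fits were tested on simulated data. Members, lists and alternatives were chosen with earlier results of these data known. Named were all members and, per list, up to 4 called genes of smallest p. Alternatives, 1 of them added later, changed background correction, normalisation, filter, probe summary, variance model, blocks, a covariate and the tumours used. One marker and the level of its list are not reported here.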

Additional observations from a re-analysis of the deposited data

Results flagged for a closer look

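In 3 of 28 groups of 5 tumours, 1 tumour stood farther from the others than Dixon's 95% limit allows, and chance alone gives this in about 1 of 20 groups. ALK/MYCN 1 had a log2 ratio of -0.57 for Ccng1, where the next tumour of its group had -1.22. The same tumour had -0.29 for Mdm2, where the next had -0.46. MYCN 1 had -1.36 on the second Cdkn2a probe, where the next of its group had -2.16. No cause was tested.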

How the results depend on the processing

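The count of lower members, 3 genes and as many probes, was 1 in each case under scanner-processed signals, median centring, spike-in centring, the deposited value table, and without ALK/MYCN 3, MYCN 2 and MYCN 5, and 2 to 3 without each tumour in turn; higher members stayed at 0 throughout. Tnfrsf10b passed in all 28 alternatives, with differences of -0.96 to -1.41. Lower pathway genes (15) numbered 8 under spike-in centring and without those 3 tumours, and 11 to 16 without each tumour. Higher pathway genes (10) numbered 6 under scanner-processed signals, the slide as a block and the deposited table, 5 with the covariate, 19 under spike-in centring, 4 without ALK/MYCN 3, MYCN 1 and MYCN 2 (chosen after seeing the data), and 5 to 9 without each tumour. Lower genes overall (2724) numbered 1351 under median centring, 927 under spike-in centring, 1533 with the covariate, 1542 without the 3 tumours, and 1771 to 2602 without each tumour, fewest without ALK/MYCN 5. Higher genes overall (3166) numbered 7028 under spike-in centring, 2101 with the covariate, 1908 without ALK/MYCN 3, MYCN 1 and MYCN 2, and 2357 to 2946 without each tumour. The share of higher genes among calls was 53.8%, against 76.7% under median and 88.3% under spike-in centring, under which the median difference of all genes was 0.093 and 0.20. Signs turned for Mdm2 (0.011 median, 0.11 spike-in), Mdm4 (0.10 median, 0.17 spike-in, 0.00034 for Cy3 alone), the second Mdm4 probe (0.071 spike-in) and Bbc3 (-0.073 covariate). The causes were not tested. Over 30 named genes and probes, 748 of 833 values kept direction and side of the threshold, 75 lost the call, 3 gained it and 7 turned. The second Cdkn2a probe gained it with the covariate (-0.74, limma adjusted p = 0.0236).

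The labels number tumours 1 to 5 in both groups. Over all genes, deviations of same-numbered tumours from their group means correlated at 0.34, -0.021, -0.081, -0.091 and -0.061. In Cdkn2a, ALK/MYCN 1 to 5 deviated by 1.17, -0.70, -0.61, 0.33 and -0.20. There MYCN 1 to 5 deviated by 2.02, -1.29, -1.39, 0.48 and 0.19. These values cannot decide whether the numbers pair tumours, and the main fit used no pairing. With the replicate number as a block, Tnfrsf10b differed by -1.17 (limma adjusted p = 0.00848), 20.8% of genes passed, Cdkn2a gained a call (0.0488) and Pmaip1 and Rprm lost theirs (0.0612 and 0.0536). The number of arrays and dim signal limit Pmaip1 and the second Cdkn2a probe.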

Other observations

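After group means were taken away, the genes whose log2 ratios over the 10 tumours ran most like those of 3 members were named among 14272 genes with a symbol and a value on every array. For Trp53 they were Psme3ip1, Pus10 and Zc3h10 (Pearson's r = 0.93, 0.92 and 0.90), for Cdkn1a Trim44, Pip4k2b and Jazf1 (0.96, 0.96 and 0.95), and for Tnfrsf10b Sbds, Agtr2 and Slc35a2 (0.98, 0.95 and 0.93). They are descriptions of 10 arrays that share slides, chosen as the highest of many, and carry no test.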
